A study of Mus musculus with 22 samples.

Results

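Immature B cells of the mouse spleen were kept in culture either by themselves or together with gamma delta T cells, and their RNA was sequenced in 3 libraries of each kind. These 6 libraries, of 22 in the series, share 1 deposited table, and the genes described are the 12386 of its 25676 genes whose mean over the 6 libraries was at least 10 normalized counts. The lowest mean among these genes was 10.003 and the highest mean just below the threshold was 9.9979. The B cells were B220+CD93+ cells from untreated mice of the reporter strain Tcrd-H2BeGFP, which by its name carries a green fluorescent histone at the locus of the T cell receptor delta chain. The labels do not say how long the cultures ran, at which cell ratio or in which medium, nor whether the B cells were sorted again after culture, nor whether a number links a library of one group to a library of the other. The age of the mice is likewise not given in the sources used here, and the p-values below reflect spread between libraries that may be technical.

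As background, immature B cells are recent arrivals from the bone marrow that carry surface immunoglobulin and the receptor CD93, and many are lost or silenced before they become follicular or marginal zone cells. Gamma delta T cells carry a T cell receptor made of gamma and delta chains and can secrete cytokines, among them IL-4, IL-17 and interferon gamma, depending on the subset. IL-4 acts on B cells through its receptor and the transcription factor STAT6, a route known for raising the low-affinity IgE receptor CD23, MHC class II and the receptor itself.

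Before the results, the libraries were compared with each other. Each held between 17505909 and 28729574 reads, and the most abundant RNA, the mitochondrial ribosomal RNA mt-Rnr2, took between 19.85% and 24.43% of them. The third co-culture library stood apart: on the first principal component, with 33.9% of the variance, it lay at 42.35 and the others between -23.05 and 1.762. In that library 1205 genes longer than 100 kb were above their mean over the libraries of the same group by a median of 0.18 on the log2 scale. In the others, each set against its own group, this median lay between -0.09 and 0.07. It also had the lowest share of mitochondrial reads, 30.19%. Replicate 3 of each group carried male RNA by the Y-linked gene Ddx3y (817 and 927 normalized counts) and the other 4 libraries female RNA by Xist (13311 to 16709 normalized counts), so sex was balanced between the groups.

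The label of the cells was checked against their markers. Cd93 lay between 1079 and 1425 normalized counts in the 3 cultures of B cells alone and between 1106 and 1284 in the 3 co-cultures. Its mean was 1233 ± 176 (SD, n = 3) alone and 1222 ± 100 (SD, n = 3) in co-culture, and the groups overlapped. Ptprc, which encodes B220, averaged 5935 ± 782 alone and 6466 ± 1743 in co-culture. Ighm averaged 43890 ± 7630 alone and 39749 ± 762 in co-culture, and Ighd 5828 ± 990 and 5987 ± 849. Of the 10 genes that mark B cell identity, 0 passed the test described next, and 1 had an unadjusted p under 0.05. With edgeR and with DESeq2 on the recovered reads, 0 of these 10 passed as well.

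Gene by gene, the groups were compared with limma's moderated test, two-sided, on log2(normalized count + 1), with Benjamini-Hochberg adjustment over all 12386 genes. A gene is called where this adjusted p was below 0.05, with no minimum fold. Of the 12386 genes, 267 were called, or 2.16%. In co-culture 136 of them rose (1.1%) and 131 fell (1.06%). The larger changes were mostly increases: 97 genes (0.783%) changed by at least 2-fold, 72 upward and 25 downward, and beyond 4-fold there were 16 genes that rose and 1 that fell. The median log2 fold change over all tested genes was -0.0050. The 3 libraries of one group lay wholly above or below the other 3 for all 267 called genes and for 2273 genes in all, or 18.4% of those tested. Fold changes below are on the log2(value + 1) scale, co-culture minus alone, and understate the change of low genes.

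**Figure D1:**
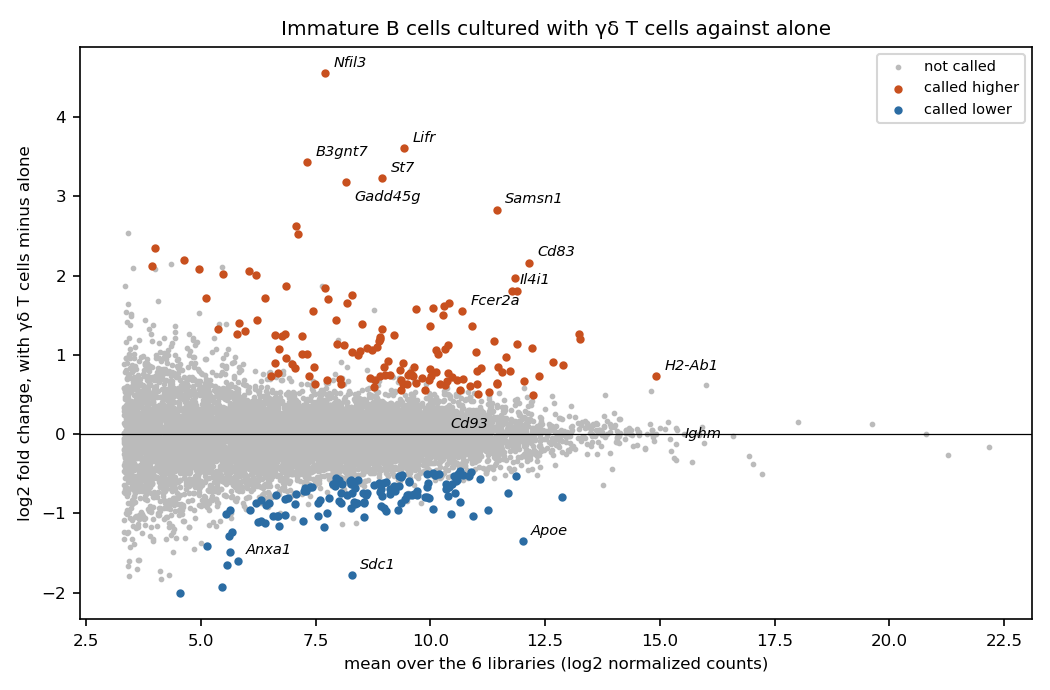
Each point is 1 of the 12386 tested genes, with the log2 of its mean over the 6 libraries on the x axis and its log2 fold change, co-culture minus alone, on the y axis. Orange points are the 136 genes called higher, blue points the 131 called lower and grey points the rest. Called increases reach 4.56 (Nfil3), and the lowest named decrease is that of Sdc1, at -1.78.

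Among called genes with a mean of at least 50, those that rose most included a transcription factor, a cytokine receptor chain and surface proteins of activated B cells. Nfil3, a leucine zipper transcription factor that IL-4 induces in B cells (chr13:52967209-52981073, GRCm38), was at 11.2, 20.9 and 17.4 normalized counts in B cells alone and at 368, 443 and 393 in co-culture. Every co-culture was far above every culture of B cells alone, the means being 16.5 ± 4.92 and 401 ± 37.8. The log2 fold change was 4.56 with a standard error of 0.225 (limma, adjusted p = 3.04e-07). Per kb of exon and ranked among the 10357 tested protein-coding genes, the level of Nfil3 moved from the percentile 9.33 to the percentile 78.0.

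Lifr, a receptor chain for the cytokine LIF (chr15:7090614-7197489), stood at 117, 113 and 79.7 alone and at 1086, 1091 and 1657 in co-culture, a log2 fold change of 3.61 (adjusted p = 4.5e-07). B3gnt7, a glycosyltransferase that extends keratan sulfate chains, read 32.7, 22.6 and 23.7 alone and 279, 272 and 323 in co-culture (log2 fold change 3.43). St7 gave 94.4, 106 and 83.4 alone against 848, 846 and 1004 (log2 fold change 3.24). In all 3 genes every co-culture was far above every culture of B cells alone. Gadd45g, a member of the growth arrest and DNA damage family, measured 51.4, 41.0 and 82.2 alone and 495, 486 and 561 with gamma delta T cells, a log2 fold change of 3.18. Samsn1, an adaptor protein known as a brake on B cell activation (chr16:75858793-76022281), was already well expressed at 697, 716 and 639 alone and reached 5573, 4579 and 4552 in co-culture. Its log2 fold change was 2.83 with a standard error of 0.122 (adjusted p = 1.11e-07). The groups of Samsn1 did not overlap, and the spread within each was small beside the distance between them.

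Cd83, a surface protein of activated B cells and dendritic cells that stabilises MHC class II and CD86 (chr13:43784775-43803132), had the highest mean in co-culture of the 15 genes that rose most. Its values were 1521, 1733 and 1693 alone and 7633, 7377 and 7160 in co-culture. The means were 1649 ± 113 and 7390 ± 237, a ratio of 4.48 and a log2 fold change of 2.17 with a standard error of 0.113 (adjusted p = 4.5e-07). Il4i1, a secreted L-amino acid oxidase first found as an IL-4 induced gene, rose from 1411, 1534 and 1725 to 5235, 5552 and 5557 (log2 fold change 1.81). The other 7 of the 15 genes were Ryr2, Serpinb6b, Plbd1, Dock10, Tgtp2, Kcnk13 and Snx29, with log2 fold changes between 1.80 and 2.63. Ryr2, an intracellular calcium channel, and Dock10, an activator of small GTPases that IL-4 induces in B cells, were the most variable of these in co-culture. Ryr2 was at 262, 118 and 325 and Dock10 at 4857, 4269 and 8588, and in both genes the library that stood apart gave the highest value. Tgtp2 has a near-identical neighbour, Tgtp1, so how their reads were divided is uncertain. Without the second co-culture library Tgtp2 was no longer called, nor was Plbd1 without replicate 2 of B cells alone.

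**Figure D2:**
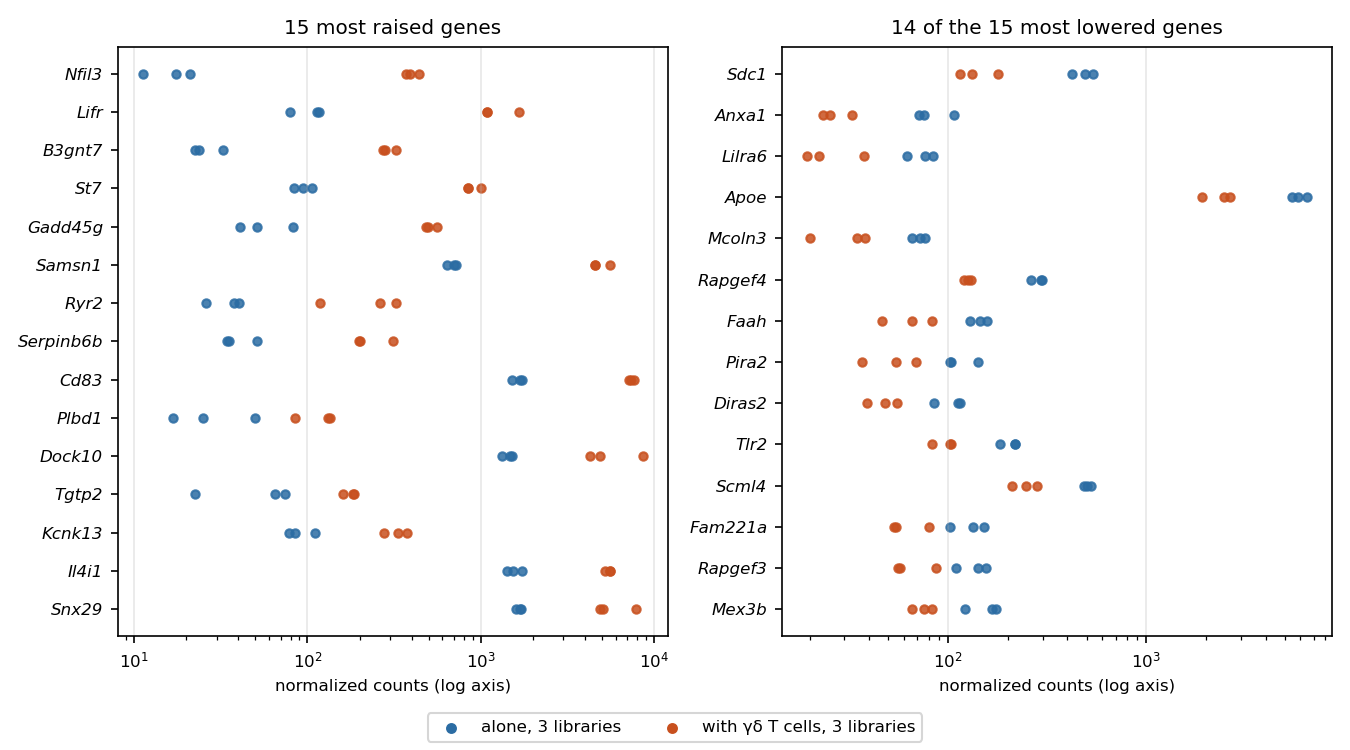
Normalized counts on a log axis of the 15 genes that rose most and of 14 of the 15 that fell most, among called genes with a mean of at least 50 and with segments, predicted genes and small RNAs left out. Each point is 1 library, blue for B cells alone and orange for co-culture. In every gene shown the 3 libraries of one group lie on one side of the other 3.

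Among called genes with a mean of at least 50, the largest falls were led by a heparan sulfate proteoglycan and a phospholipid-binding protein. Segments, predicted genes, small RNAs and genes below that mean were not ranked. The lowest log2 fold change of all called genes was -2.01. Sdc1, or syndecan-1, the surface marker of plasma cells that B cell precursors of the bone marrow carry too (chr12:8771323-8793715), was at 490, 422 and 539 alone and at 179, 115 and 132 in co-culture. The means were 484 ± 58.9 and 142 ± 32.8, 3.4-fold lower in co-culture, with a log2 fold change of -1.78 and a standard error of 0.173 (adjusted p = 0.000107). Anxa1, a phospholipid-binding protein induced by glucocorticoids, gave 107, 75.3 and 71.0 alone and 23.3, 32.6 and 25.4 in co-culture (log2 fold change -1.60). Neither gene overlapped between the groups. Tlr2, the receptor for bacterial lipopeptides, was at 218, 183 and 217 alone and at 102, 104 and 82.5 in co-culture, a log2 fold change of -1.09. Rapgef4 and Rapgef3, the exchange factors through which cAMP activates the GTPase Rap, fell together: Rapgef4 from 295, 297 and 263 to 121, 131 and 125 (log2 fold change -1.17), Rapgef3 with a log2 fold change of -1.03. Faah, which degrades endocannabinoids, fell by 1.16 on the log2 scale. Lilra6, Apoe, Mcoln3, Pira2, Diras2, Scml4, Fam221a and Mex3b were also among the 15, between -1.49 and -1.02. Sdc1, Anxa1, Apoe, Rapgef4, Tlr2 and Scml4 were called whichever library was left out, and the other 8 of those named lost the call without at least 1 library of B cells alone. Apoe is described with its group.

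Among 15 genes listed as IL-4 and STAT6 targets, 12 were tested, 6 rose and 0 fell. The median log2 fold change of the 12 was 1.02, beside -0.0050 over all tested genes. The members called were Nfil3, Il4i1, Socs1, Fcer2a, Xbp1 and Il4ra. The list was drawn up with earlier results of these data known, so its count describes the libraries and is not independent evidence of a direction. Of the 6 members not called, Cish (0.97), Ighg1 (2.15) and Cd86 (0.31) were higher and Pdcd1lg2 (-0.08), Batf (-0.50) and Ccl22 (-1.15) lower in log2 fold change. The value for Ighg1 rests on low counts, 37.4, 4.19 and 0 alone and 16.5, 21.5 and 43.0 in co-culture. Its groups overlapped, as did those of Pdcd1lg2 and Ccl22. The remaining 3 listed genes, Ccl17, Tnfrsf8 and the IgE constant gene Ighe, were below the minimum mean in these cultures.

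Fcer2a encodes CD23, the low-affinity IgE receptor of mature B cells and a textbook STAT6 target. The 250 bases before its RefSeq start site (GRCm38.p6, minus strand, chr8:3690862-3691111), which lie inside the longer gene span of the GENCODE annotation, are shown because they hold TTC and GAA separated by any 4 bases, a palindromic motif to which STAT6 is known to bind, here in capitals. The capitals begin 168 bases before the start site.
Fcer2a: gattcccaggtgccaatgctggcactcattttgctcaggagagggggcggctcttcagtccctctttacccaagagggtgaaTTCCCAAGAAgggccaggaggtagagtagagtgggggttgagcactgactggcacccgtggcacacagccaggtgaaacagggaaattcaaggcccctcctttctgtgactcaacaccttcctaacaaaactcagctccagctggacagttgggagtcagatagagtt
Searched on both strands over 250 bases before to 50 bases after each start, this motif was in the promoters of 4 of the 55 genes with a listed promoter that rose at least 2-fold (7.27%, exact 95% interval 2.02 to 17.6). It was in 533 of 8312 tested genes (6.41%) and in 2164 of 27025 genes of the whole table (8.01%). The share among the genes that rose was thus near that of all genes, and a match is a description of letters only.

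Fcer2a was at 799, 844 and 864 in B cells alone and at 2417, 2183 and 2820 in co-culture, with means of 836 ± 33.3 and 2473 ± 322. The log2 fold change was 1.56 with a standard error of 0.123 (limma, adjusted p = 2.03e-05), and the groups were far apart. Socs1, the feedback inhibitor of JAK kinases (chr16:10782240-10785536), was at 95.3, 94.6 and 116 alone and at 357, 317 and 325 in co-culture. Its log2 fold change was 1.70 (adjusted p = 4.68e-05). Il4ra, the IL-4 receptor alpha chain, moved less, from 2208, 2102 and 2241 to 3367, 3206 and 3678. The groups of Il4ra did not overlap either, and its log2 fold change was 0.64 with a standard error of 0.112 (adjusted p = 0.00996). Stat6 itself was at 1838 ± 96.2 alone and 1832 ± 127 in co-culture. Of the 13 feedback inhibitors of cytokine signalling, Socs1 rose, and the other 12 were not called. Of 30 tested cytokine receptor chains, JAKs and STATs, Il4ra and Ifngr2 rose, Il10ra fell, and 27 were not called. These 3 calls were all lost without any 1 of the 3 cultures of B cells alone. Ifngr2 and Il10ra lost theirs without co-culture replicate 1 or 2 as well.

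The MHC class II pathway, which loads peptides onto class II molecules for CD4 T cells, had 6 of its 13 tested members called higher and 0 called lower. The median log2 fold change was 0.62, and all 13 values were above 0. H2-Ab1, the beta chain of I-A, was at 23275 ± 497 alone and 38851 ± 4105 in co-culture (log2 fold change 0.73). The chaperone of peptide exchange was raised in its chains H2-DMa (0.79), H2-DMb2 (0.74) and H2-DMb1 (0.84), the last 2 being similar neighbours between which reads may be divided uncertainly. Ifi30, a thiol reductase of the class II compartment, was at 2255, 2706 and 2193 alone and at 5029, 5637 and 5047 in co-culture, a log2 fold change of 1.14 (adjusted p = 0.000263). Ciita, the master activator of class II genes, read 2059, 1946 and 2379 alone and 3529, 3458 and 5958 in co-culture. Its log2 fold change was 0.98, with the highest value in the library that stood apart. Cd74 (0.62), H2-Aa (0.54) and H2-Eb1 (0.49) were not called. Without the third co-culture library 11 of the 13 were called higher, and without 1 culture of B cells alone 2 to 3, Ciita not among them.

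Ciita and Socs1 are neighbours on chromosome 16, a stretch singled out after its values were seen. Of the 14 genes tested between chr16:10480059 and 11480059, 5 were called higher: Ciita, Dexi, Socs1, Rmi2 and Snx29. Dexi, a gene of little-known function, was at 219, 188 and 193 alone and 534, 523 and 518 in co-culture (log2 fold change 1.39). Rmi2, a subunit of the complex that dissolves DNA recombination intermediates, had a log2 fold change of 1.72 and Snx29, a sorting nexin, of 1.80. Between them Clec16a (0.11), Litaf (-0.08), Snn (-0.07), Txndc11 (-0.14) and Rsl1d1 (0.0020) were not called. The annotated spans of Ciita and Dexi overlap, and whether the counting used strand is not given in the sources used here, so reads of the 2 genes may not be told apart.

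**Figure D3:**
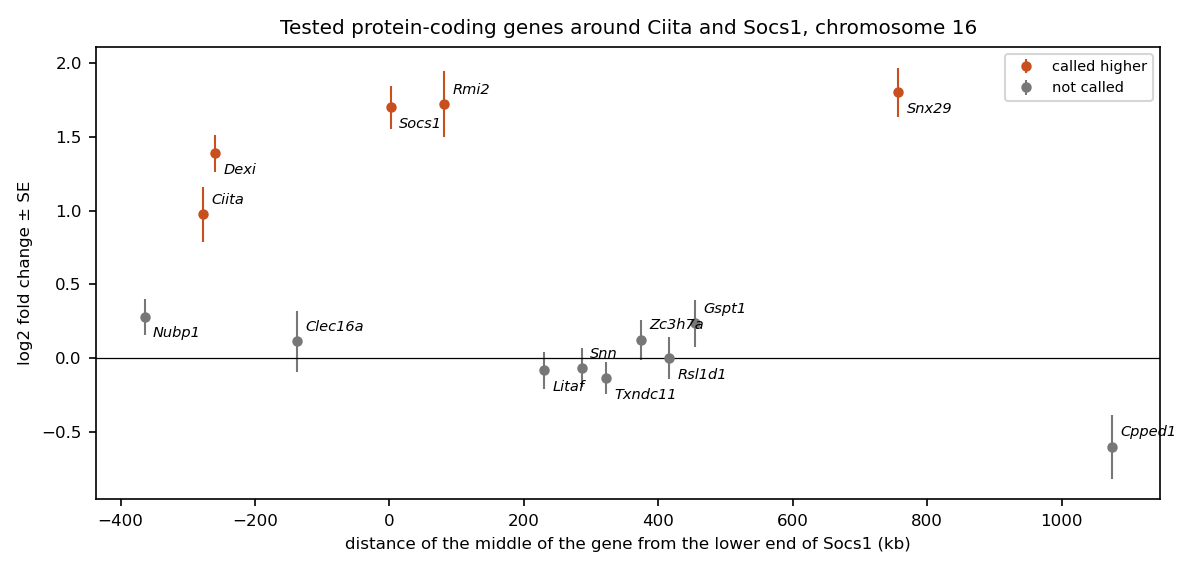
Log2 fold change with its standard error for the tested protein-coding genes around Socs1 on chromosome 16, against the distance in kb of each gene's middle from the lower end of the Socs1 span. The 5 called genes (orange) lie between 0.98 and 1.80, and genes between them (grey) lie near 0.

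Genes of the endoplasmic reticulum and of sterol synthesis rose together with the genes above. In the unfolded protein response, by which cells enlarge their folding capacity, 6 of 14 tested genes rose and 0 fell, with a median log2 fold change of 0.55. Sdf2l1, a partner of the chaperone BiP, was at 99.1, 77.9 and 84.7 alone and at 295, 256 and 227 in co-culture (log2 fold change 1.56). Xbp1, a transcription factor that drives the secretory apparatus and an IL-4 target, was at 887, 787 and 800 alone and at 1851, 1758 and 1601 in co-culture, a log2 fold change of 1.07 (adjusted p = 0.000246). Both genes were higher in every co-culture than in any culture of B cells alone. Calr, the calcium-binding chaperone calreticulin, had a log2 fold change of 0.87 and Hspa5, which encodes BiP, of 0.79. Pdia6 (0.69) and Manf (0.63) completed the called members. Without the third co-culture library 10 were called higher. Without the first culture of B cells alone 3 were.

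The ER stress element, CCAAT and CCACG separated by any 9 bases, was found on either strand in the listed promoters of 6 of the 13 members of this list that have one (46.2%, exact 95% interval 19.2 to 74.9), and in 37 of 27025 genes of the table (0.137%). This motif and the sequences of Hspa5 and Calr were chosen after values were seen, and the element is one by which such genes were first recognised. Capitals mark the element. The window of Hspa5 (GRCm38.p6, plus strand, chr2:34772020-34772049) is shown forward, and is kept to 30 bases because its promoter overlaps an annotated UTR of Hspa5 by 120 bases. That of Calr (minus strand, chr8:84846935-84847181) carries the element in reverse complement.
Hspa5: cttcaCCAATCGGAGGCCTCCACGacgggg
Calr: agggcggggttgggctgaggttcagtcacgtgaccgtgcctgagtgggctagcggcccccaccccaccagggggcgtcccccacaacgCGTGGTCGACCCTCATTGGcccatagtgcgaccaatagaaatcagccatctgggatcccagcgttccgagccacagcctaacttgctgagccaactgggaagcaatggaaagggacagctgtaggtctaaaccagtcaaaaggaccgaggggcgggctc
The 3 called members with the element were Calr, Hspa5 and Pdia6. Creld2, Dnajc3 and Hsp90b1 hold it as well and were not called, with log2 fold changes of 0.67, 0.38 and 0.48.

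In the amino acid response, governed by the transcription factor ATF4, 6 of 18 tested genes rose and 0 fell, and 17 of the 18 values were above 0 (median 0.39). Trib3, a pseudokinase induced by ATF4, was at 59.8, 61.1 and 71.0 alone and at 168, 146 and 145 in co-culture (log2 fold change 1.24, adjusted p = 0.00191). Sesn2, a leucine sensor upstream of mTORC1, was at 78.5 ± 5.8 alone and 153 ± 4.08 in co-culture (log2 fold change 0.96). Shmt2 and Mthfd2, mitochondrial enzymes of one-carbon metabolism, rose by 0.73 and 0.69, the amino acid transporter Slc7a5 by 0.69 and the alanyl-tRNA synthetase Aars by 0.62. Atf4 itself was not called (0.20). The letters TGATGNAA, which ATF4 and C/EBP proteins can bind, were in the promoters of 6 of 16 listed genes (37.5%) and 1219 of 27025 (4.51%). This motif was chosen after values were seen, and the list is itself of genes governed by ATF4, so its share is not independent evidence. Of the 6 genes with the letters Aars and Trib3 were called, and Asns, Chac1, Gars and Slc7a11 were not. Without the first culture of B cells alone 2 genes of the list were called, Shmt2 and Slc7a5 not among them.

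Cholesterol synthesis had 8 of 23 tested genes called higher and 0 called lower. The median log2 fold change was 0.48, and 22 of the 23 values were above 0. Lss, which closes the sterol rings, was at 403, 369 and 381 alone and at 652, 636 and 643 in co-culture, a log2 fold change of 0.74 with a standard error of 0.115 (adjusted p = 0.00466). Idi1 (0.85) and Fdps (0.75), enzymes of isoprenoid formation, Sqle (0.71), Msmo1 (0.63), Fdft1 (0.55) and Sc5d (0.55) also rose. Srebf2, the transcription factor of the pathway, was not called (0.07). This count moved with single libraries: it was 15 without the third co-culture library, 5 without the first or the second, 4 without replicate 1 of B cells alone and 1 without replicate 2 or replicate 3.

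Genes of sterol efflux, many of them targets of the LXR receptors, went the other way in 3 of 9 tested members, and 0 were called higher. Of the 9 log2 fold changes 4 were above 0 (median -0.29). Apoe, the lipid carrier apolipoprotein E (chr7:19696109-19699188), was at 6478, 5848 and 5424 alone and at 2656, 2458 and 1915 in co-culture. The means were 5917 ± 530 and 2343 ± 384, 2.52-fold lower, with a log2 fold change of -1.35 and a standard error of 0.141 (adjusted p = 0.000207). Mylip, a ubiquitin ligase that LXR induces, fell by 0.77 and the sterol exporter Abcg1 by 0.87. Abca1, the other exporter, had a log2 fold change of -0.73 and was not called. Without replicate 1 of B cells alone the count of the list was 1, Mylip and Abcg1 being lost. Without replicate 2 of B cells alone both were lost too, and the count was 2 because another member was then called. Abcg1 also lost its call without replicate 3 of B cells alone and without co-culture replicate 2. The summed macrophage and monocyte markers lay between 1005 and 1061 alone and between 757 and 895 in co-culture. Their part in the level of Apoe was not tested, and 0 of the 4 tested markers of that list were called, 1 having an unadjusted p under 0.05.

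**Figure D4:**
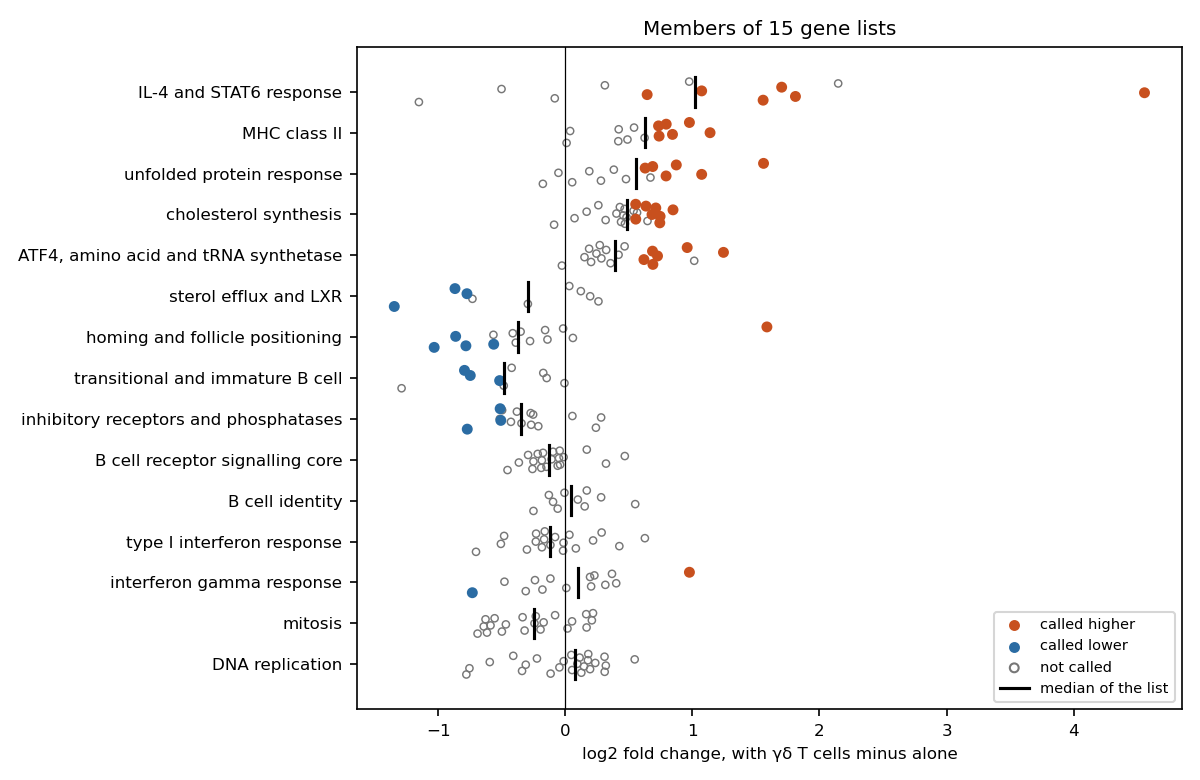
Log2 fold change, co-culture minus alone, of the tested members of 15 gene lists, 1 point a gene. Filled points are called genes, open points are not, and black bars are medians, which run from 1.02 (IL-4 and STAT6 response) to -0.48 (transitional and immature B cell).

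Receptors that guide B cells changed in both directions. Gpr183, or EBI2, the oxysterol receptor that draws activated B cells to the outer follicle (chr14:121952551-121965195), was at 634, 423 and 558 alone and at 1756, 1491 and 1554 in co-culture. Its log2 fold change was 1.59 with a standard error of 0.151 (limma, adjusted p = 9.1e-05). It was the 1 tested homing gene of 14 that rose, and 4 fell. Ccr7, the receptor that leads towards the T cell zone, was at 1757, 1700 and 1647 alone and at 1077, 1032 and 868 in co-culture, without overlap (log2 fold change -0.78). Itgb7 (-0.86) and Itga4 (-0.56), the chains of the gut-homing integrin, fell too. Cxcr5, which leads into the follicle, was at 1496 alone and 1476 in co-culture on average. S1pr3, a receptor for sphingosine-1-phosphate found on marginal zone B cells, rose from 175, 125 and 135 to 524, 414 and 524 (log2 fold change 1.75). It was the 1 gene called among 11 of the marginal zone and Notch2 list. Without any 1 library other than the third co-culture library, the homing genes called lower were 2, and Itgb7 was not among them.

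Markers of the immature stage were lower or level. Of 9 tested genes of the transitional and immature list 3 fell, 0 rose, and all 9 log2 fold changes were below 0, with a median of -0.48. Cd24a, the heat-stable antigen that declines as B cells mature, was at 8790, 10365 and 9006 alone and at 5742, 6504 and 4219 in co-culture (log2 fold change -0.79, adjusted p = 0.0233). Sox4 fell from 332 ± 41.4 to 196 ± 12.4 (-0.75) and Myb from 1289 ± 94.3 to 902 ± 92.5 (-0.52), both transcription factors of early B cells. Cd93, by contrast, stayed at -0.0066, and Rag1 (-0.48), Rag2 (-1.29) and Vpreb3 (-0.42) were not called. Of the mature follicular list, Fcer2a rose, Ccr7 was among those that fell, and the complement receptor Cr2, at 559 ± 36.7 alone and 751 ± 100 in co-culture, was not called (0.42, adjusted p = 0.151). In bulk libraries like these, fewer cells of a kind and less RNA per cell cannot be told apart. The 3 calls of the immature list fell to 0 without replicate 2 or replicate 3 of B cells alone, and to 1 without replicate 1 or without co-culture replicate 1 or 2.

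Few activation genes were called. Besides Cd83, the early activation marker Cd69 rose among 19 tested activation genes, from 614, 518 and 533 to 1107, 1024 and 744 (log2 fold change 0.77), and Ccr7 fell. Cd86 (0.31), Cd40 (0.20), Icam1 (-0.23) and Cd44 (-0.36) were not called. Among 14 genes of the early response to the B cell receptor, Egr2 alone was called, at 228 ± 37.7 alone and 456 ± 39.6 in co-culture (log2 fold change 1.00), beside Egr1 at -0.01, Nr4a1 at -0.18 and Myc at 0.18. Of the 20 core genes of B cell receptor signalling 0 were called with limma, edgeR or DESeq2, and 5 had an unadjusted p under 0.05. Without the third co-culture library 3 of them were called lower. Bcl6, the repressor of germinal centre B cells, rose among 21 lineage factors, from 729 ± 84 to 1300 ± 208 (0.83), and Rel among 19 NF-kB genes (0.50). Lck, a kinase of T cells that B cells also make, rose by 0.71. Cd69, Rel and Lck were no longer called without any 1 library other than the third co-culture library, nor was Bcl6 without replicate 1 or 3 of B cells alone.

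Inhibitory receptors and survival genes were lower where they moved. Of 15 tested inhibitory receptors and phosphatases 3 fell and 0 rose, with a median of -0.34. Pirb, an inhibitory receptor for MHC class I, was at 852, 973 and 996 alone and at 457, 628 and 577 in co-culture (log2 fold change -0.77, adjusted p = 0.0127), Fcrl1 fell by 0.51 and the phosphatase Ptpn22 by 0.51. The groups of Pirb did not overlap. Its relatives Lilra6 and Pira2 on chromosome 7 fell too, and as a family of near-identical genes their reads may be divided uncertainly. Of 14 tested BCL2 family genes, Bcl2, which blocks apoptosis, fell from 373 ± 29.2 to 242 ± 22.1 (-0.62) and Bmf, which promotes it, from 393 ± 52.7 to 251 ± 15.7 (-0.64). Mcl1 (-0.17) and Bcl2l11 (-0.35) were not called. Of 12 tested targets of glucocorticoids and FOXO factors 2 fell, Sgk1 (-0.81) and Pik3ip1 (-0.54), and 1 rose, Bcl6, with a median of -0.20. Without the third co-culture library 5 inhibitory genes were called lower, without replicate 2 or 3 of B cells alone 0, and without any other library 1. Bcl2 and Pik3ip1 lost their calls without any 1 library other than the third co-culture library. Bmf lost its call without replicate 1 or 2 of either group, and Sgk1 without any 1 culture of B cells alone.

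Division and interferon genes showed few or no calls. Of 21 mitosis genes 0 were called by limma, edgeR or DESeq2 (4 at an unadjusted p under 0.05), with a median of -0.24, and of 24 replication genes 0 (2 at an unadjusted p under 0.05). Mki67 was at 64.5, 105 and 90.9 alone and at 52.5, 79.2 and 230 in co-culture, where the third library alone lay above the cultures of B cells alone. E2f2, a cell cycle transcription factor, fell from 1047 ± 160 to 634 ± 55 (-0.71), a call lost without replicate 1 or 2 of B cells alone or co-culture replicate 1. Of 19 type I interferon genes 0 were called by limma or edgeR and 1 by DESeq2, with 1 at an unadjusted p under 0.05. Of 14 interferon gamma genes Ciita rose, Gbp3 fell (-0.73), and Irf1 (0.19) was not called. Ciita lost its call without any 1 culture of B cells alone and Gbp3 without the first or the second. Glycolysis (17 genes), nuclear oxidative phosphorylation (22), ribosome biogenesis (22), the BAFF and CD40 axis (10) and heat shock (11) had 0 calls by limma, edgeR and DESeq2, with 2, 0, 9, 2 and 0 genes at an unadjusted p under 0.05. Class switching had 0 of 11 by limma and edgeR and 1 by DESeq2, with 2 at an unadjusted p under 0.05. The ribosome biogenesis genes lay above 0 in 21 of 22 cases (median 0.28), and 4 of them were called higher without the third co-culture library.

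Markers of other cells were measured in the same libraries. The gamma delta T cell genes Tcrg-C1, Tcrg-C4 and Trdv4 were at 0 in all 6 libraries, and the summed level of the 6 listed gamma delta genes in the table was 1.25 to 5.86 normalized counts alone and 0 to 5.26 in co-culture. Trdc, the delta constant gene, was not analysed here. The cytokine gene Il13 was at 0 in all 6 libraries and Il4 at 0.694 on average alone and 0 in co-culture. The 14 common T cell genes summed to between 2497 and 2657 alone and between 2111 and 2550 in co-culture, of which Cd2 and Cd28 made up most. Of the 12 that were tested Lck was the 1 called, and 9 lay below 0 (median -0.12). Cd3e was at 46.5 alone and 50.9 in co-culture on average, and was not called (0.13). Of 6 tested alpha beta T cell genes 0 were called by limma, edgeR or DESeq2, with 0 at an unadjusted p under 0.05, and 4 lay above 0 (median 0.55). The highest of them was Cd4, at 8.29 alone and 16.7 in co-culture on average (1.18). The part of such cells in the results above was not tested. Haemoglobin and other erythroid genes summed to 422 in the first co-culture library and to between 3.74 and 15.5 in the other 5. Rasip1, a Ras-interacting protein of endothelial cells, was at 0 in the 3 cultures of B cells alone and at 17.5, 12.6 and 12.3 in co-culture, at least 14.4-fold higher when the group at 0 is set to 3 reads in sum. It lay below the minimum mean and was not tested.

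**Figure D5:**
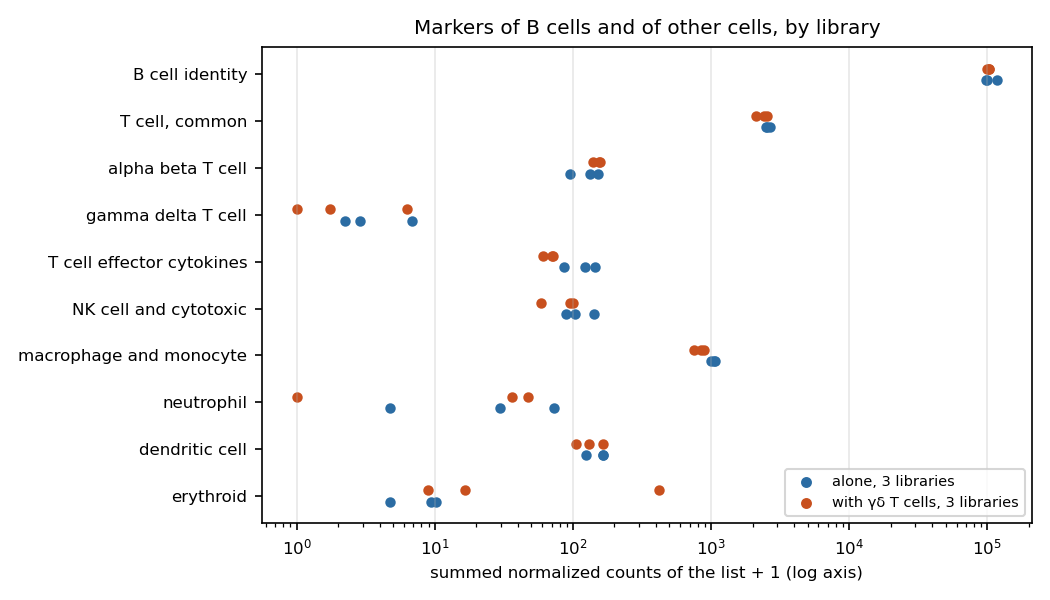
Summed normalized counts plus 1, on a log axis, of the marker genes of B cells and of 9 other kinds of cell or cell product, 1 point a library (blue alone, orange co-culture). The gamma delta genes lie at 0 to 5.86 in both groups, and 1 co-culture library stands out for erythroid genes.

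The culture comparison can be set beside spleen B cells taken from mice with and without gamma delta T cells. In Tcrd-GDL mice gamma delta T cells can be depleted with diphtheria toxin, injected 2 times at 15 ng per g with an interval of 48 h, and the cells were taken on day 8. Untreated minus depleted has the same orientation as co-culture minus alone. Experiment 1 had 3 untreated and 3 depleted libraries and experiment 2 had 5 and 2, its fit also holding 3 toxin-treated Tcrd-H2BeGFP libraries. Toxin was given to the depleted mice and not to the untreated ones, so the toxin and the loss of gamma delta T cells cannot be told apart in this contrast. In experiment 1, 0 of 11701 genes were called by limma or edgeR, with 1033 at an unadjusted p under 0.05. In experiment 2 limma called 40 of 13364 (0.299%), with 1309 at an unadjusted p under 0.05, and edgeR, on the untreated and depleted libraries alone, called 9. The tables were normalized separately and the difference between culture and spleen was not tested.

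Of the 136 genes that rose in culture, 69 of the 134 tested in experiment 2 had a log2 fold change above 0, with a median of 0.0093. In experiment 1 it was 76 of 129, with a median of 0.049. Of the 131 genes that fell in culture, 76 of 131 were below 0 in experiment 2 (median -0.050) and 73 of 131 in experiment 1 (median -0.067). Over all genes tested in the 2 experiments the medians were 0.0024 and 0.011 in the same order. Of all these genes, 50.5% in experiment 2 and 52% in experiment 1 lay above 0. Nfil3 was at 10.9 ± 1.75 in untreated spleen B cells of experiment 2 and 11.1 ± 7.51 in depleted ones. Cd83 had a log2 fold change of -0.08 in experiment 2 and of 0.42 in experiment 1, where it was at 1845 ± 87.0 in untreated and 1384 ± 127 in depleted mice and was not called (adjusted p = 0.415). Fcer2a was at -0.03 and 0.05 in the same order.

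Among the genes called in culture, 6 were called in experiment 2 by limma, and 1 of the 6, Ptpn22, by edgeR. By limma they were 2 of the 134 tested genes that rose in culture and 4 of the 131 that fell, in either direction. Of all 13364 genes tested there, 40 were called (0.299%). Gpr183 was at 1579 ± 139 in untreated and 1016 ± 120 in depleted mice (log2 fold change 0.64, adjusted p = 0.0209), and in experiment 1 at 521 ± 33.8 and 540 ± 135. In the toxin-treated Tcrd-H2BeGFP mice of experiment 2, a different strain, it was at 1011 ± 45.0, and its 3 values lay between the 2 values of the depleted mice. Sdf2l1 was at 366 ± 41.7 untreated and 220 ± 27.2 depleted in experiment 2 (0.73, adjusted p = 0.0434) and at 263 ± 13.5 in the toxin-treated Tcrd-H2BeGFP mice, whose 3 values all lay between those 2 groups. In experiment 2 both genes were thus higher in untreated than in depleted mice, and both were higher in co-culture than alone. Sdf2l1 was at 124 ± 38.4 untreated and 89.3 ± 23.5 depleted in experiment 1 and was not called there (limma, adjusted p = 0.617).

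In experiment 2 Bcl2 (-0.60), Ptpn22 (-1.17) and Pik3ip1 (-1.17) were lower in untreated than in depleted mice, and they were lower in co-culture. For Ptpn22 the 2 depleted libraries were far apart, at 2675 and 1305, and for Pik3ip1 at 3426 and 1459. Myb was higher in untreated mice (0.57) and lower in co-culture (-0.52). In the toxin-treated Tcrd-H2BeGFP mice Bcl2 was at 1672 ± 182, Ptpn22 at 867 ± 33.0, Pik3ip1 at 861 ± 53.3 and Myb at 1516 ± 108. The untreated means of these genes were 1517, 836, 1001 and 1503 and the depleted means 2285, 1990, 2443 and 1012. In experiment 1 their log2 fold changes were -0.22, -0.40, -0.50 and 0.79 in the same order, and they were not called.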

How the data were processed

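RNA of 6 libraries of cultured mouse splenic immature B cells was compared. Per the labels' protocols, total RNA was isolated with an RNeasy Plus Micro kit and made into stranded libraries with a SMART-Seq kit. Per the submitters' processing notes, bcl2fastq and STAR 2.5.2b were used, with build mm10. The counter, its strand setting, the annotation and the scaling were not named there or in the labels. In the authors' table the deposited values are normalized counts, a signal per gene. All values (100%) were whole multiples of 1 read within 0.01, so whole reads were recovered. Libraries held 17505909 to 28729574 reads, and counting error was 5.79% at the median tested gene and 29.5% at a mean near 10.

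Genes with a mean of at least 10 were tested with limma 3.58.1 (R 4.3.3, trend) on log2(value + 1), with Benjamini-Hochberg adjustment and a threshold of 0.05. Alternatives were pseudocounts, filters, TMM, quantile normalization, no trend, edgeR 4.0.16 and DESeq2 1.42.0 on recovered reads, a replicate block and leaving out libraries. Sex as a term, and leaving out replicate 3 of both groups, were chosen after seeing the data. Named were the 15 highest and 15 lowest called genes with a mean of at least 50, up to 4 called genes per list, and 10 genes always given; other list members stand beside their list's count, and some results are not reported here. The 49 gene lists (35 of B cell biology, 10 of other cells, 4 of RNA quality) and the comparison itself were chosen with earlier results of these data known. Coordinates are from GENCODE M21 (GRCm38, 98.8% of identifiers matched) and promoters from RefSeq (GRCm38.p6). The test was tried on simulated data before use.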

Additional observations from a re-analysis of the deposited data

How the results depend on the processing

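With the 6 libraries as deposited, 267 genes were called (136 higher, 131 lower), and 97 of them changed at least 2-fold. All 267 kept their sign under every alternative in which they were tested. Numbers of calls moved more. Without the variance trend 81 genes were called (57 higher, 24 lower, 64 at least 2-fold), so the split went from 50.9% to 70.4% higher. DESeq2 called 399 genes, 199 of them lower, and edgeR 237 (134 higher, 103 lower). With sex as a term 545 were called (237 higher, 308 lower) and without replicate 3 of both groups 510 (225 higher, 285 lower). Leaving out 1 library at a time gave 103 to 664 calls, 76 to 274 of them higher and 27 to 390 lower. The 103, 115 and 112 calls came without replicate 1, 2 or 3 of B cells alone, when 68.7% to 73.8% were higher. The 192 and 165 calls came without co-culture replicate 1 or 2, and the 664 without co-culture replicate 3, when 41.3% were higher. The causes were not tested. Of the 75 named genes called, 31 stayed called without the trend, 42 to 43 without a library of B cells alone, 56 to 57 without co-culture replicate 1 or 2, and 75 without co-culture replicate 3.

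With the replicate number as a block 448 genes were called (204 higher, 244 lower) and all 267 remained. Deviations of same-numbered libraries correlated at 0.2004, -0.037 and 0.2297, and those of other pairs at -0.258 to 0.1299. As deviations within each group sum to 0, these values cannot decide whether the numbers pair the libraries. The labels do not link the numbers, so the main fit left them out. Co-culture replicates 1 and 3 correlated best with their own number and replicate 2 with replicate 1, which is a hint from the data and not the design. Replicate 3 was also the male library of both groups.

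Log2 fold changes near 0 changed sign in genes that were not called. Cd93 was at 0.013 with TMM, 0.00848 with edgeR and 0.00726 with DESeq2. Leaving out 1 library at a time moved Cd93 between -0.098 and 0.10, Ptprc between -0.11 and 0.25, Ighm between -0.21 and 0.00893, Ighd between -0.085 and 0.16, and Mki67 between -0.40 and 0.66. The lowest values of Ptprc and Mki67 came without co-culture replicate 3, when Ighd was at -0.067. Without replicate 3 of both groups Ptprc was at -0.16, Ighd at -0.058 and Mki67 at -0.35.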

Other observations

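Cyclic AMP is a second messenger that damps lymphocyte activation. The family of genes for its signalling was singled out after its values were seen, so it has no test of its own. Of 32 tested genes for adenylyl cyclases, phosphodiesterases, protein kinase A subunits and inhibitors, arrestins, the exchange factors Rapgef3 and Rapgef4 and a few receptors, 10 fell, 1 rose and 21 were not called, with a median log2 fold change of -0.28 and 8 values above 0. Beside Rapgef3 and Rapgef4, the genes that fell included the prostaglandin E2 receptor Ptger4 (-0.93), the cyclase Adcy7 (-0.59), the phosphodiesterases Pde2a (-0.82), Pde7a (-0.58) and Pde4b (-0.51), and the arrestins Arrb1 (-0.63) and Arrb2 (-0.64). Ptger4 averaged 403 in B cells alone and 212 in co-culture, without overlap. Pkib, an inhibitor of protein kinase A, rose from 615 to 1888 (1.62), and the kinase subunits Prkaca (-0.03), Prkacb (-0.29) and Prkar1a (-0.06) were not called.

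Small nucleolar RNAs were called in 1 direction: 9 of 125 tested fell and 0 rose, with a median of -0.24. Of 55 small nuclear RNAs 2 fell and 0 rose. Over all 12386 tested genes 131 fell (1.06%). The counts by class were not repeated with single libraries left out, when 27 to 390 genes in all were called lower. The 18 tested small Cajal body RNAs had a median of -0.40. Of 11 tested structural and nuclear noncoding RNAs, listed as a sign of RNA quality, 0 were called by limma, 2 had an unadjusted p under 0.05, and 10 lay below 0 (median -0.35). Their part in the change was not tested. Rnu3a, which guides processing of ribosomal RNA, was at 1191 ± 130 alone and 698 ± 188 in co-culture (n = 3 each). Of 168 tested immunoglobulin V segments 0 were called. On chromosome 13, in a stretch from 32842092 to 33842092 singled out after its values were seen, the 3 tested genes were all called. Each is a serpin: Serpinb6b (2.52) and Serpinb9 (1.25), an inhibitor of granzyme B, rose, and Serpinb1a (-0.74), an inhibitor of neutrophil proteases, fell.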
